A study of Mus musculus with 8 samples.

Results

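The genes described here copy the genome and supply its building blocks. A list of 48 gene symbols was matched to the symbols of the deposited probe table, which held 46 of them on 71 probes, out of 18138 gene symbols on the array. Gins1 and Gins2 were not found among the symbols. A gene was tested when a probe of it was detected on at least 2 of the 8 arrays, which left 42 members on 55 probes out of 10163 genes tested. Of these 42 members, 39 were detected on all 8 arrays. Orc1l, Pola1, Pole2 and Prim1 were on the array and were detected on at most 1 array, so they were not tested.

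The arrays came from bone marrow-derived macrophages of female C57bl/6J mice aged 8 weeks, wild type (WT) or labelled iNOS deficient (iNOS-/-). The iNOS-/- mice carry a germline disruption of Nos2, the gene of inducible nitric oxide synthase, so that any cell of the culture, not macrophages alone, would lack the enzyme. All cells were cultured for 7 days with GM-CSF at 10 ng/ml. They were left unstimulated or were turned into M1 macrophages with LPS (200 ng/ml) and IFN-γ (10 ng/ml) for 6 h. Each of these 4 groups was measured on 2 Illumina bead arrays. Whether the 2 arrays within a group represent separate mice or cultures is not given in the labels, so the p-values reflect only the spread between arrays, which may be technical. GM-CSF cultures of marrow can hold dendritic cells and granulocytes beside macrophages.

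DNA replication starts where the origin recognition complex, Cdc6 and Cdt1 load the ring of Mcm2 to Mcm7 onto DNA. Cyclin E with its kinase, and E2F transcription factors such as E2f1, open S phase, in which Cdc45 and the GINS complex turn the ring into a moving helicase. Polymerases then copy both strands behind it, held on DNA by the Pcna clamp, while ribonucleotide reductase and the thymidylate enzymes provide deoxynucleotides. Most of these genes are transcribed mainly in cycling cells. Marrow precursors divide under GM-CSF, and mature macrophages tend to leave the cycle when LPS or IFN-γ activates them.

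Between 11833 and 12673 of the 25697 probes were detected per array, and the median difference between both arrays of a group was 0.161 to 0.187 on the log2 scale, so no array stood apart by these measures. All values below are log2 of the scaled intensity, and a difference was called at an adjusted p under 0.05 from limma over all 13868 tested probes. Nos2, the targeted gene, was examined with its only probe, which starts at base 3546 of the transcript. Its value was 7.47 and 7.05 for WT M1, against 7.49 and 7.67 for the arrays labelled iNOS-/- M1, while all 4 unstimulated arrays were without detection. The difference of 0.32 between the M1 groups was not called (adjusted p = 0.445). Whether this probe lies in the deleted part of the gene is not given in the sources used here, so it may check nothing, and every genotype below is the genotype as labelled.

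Most replication genes were higher with LPS plus IFN-γ than without in WT cells, and lower with it in cells labelled iNOS-/-. The median over the 42 members was 6.16 and 6.09 on the WT unstimulated arrays and 7.09 and 7.03 on the WT M1 arrays. It was 7.38 and 7.42 on the arrays labelled iNOS-/- unstimulated and 6.15 and 6.04 on those labelled iNOS-/- M1. The unstimulated WT arrays and the M1 arrays labelled iNOS-/- were thus the low groups, and the median over all tested genes moved little, between 6.08 and 6.32 on the 8 arrays. In bulk samples, fewer cycling cells and less of these RNAs per cell cannot be told apart.

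**Figure D1:**
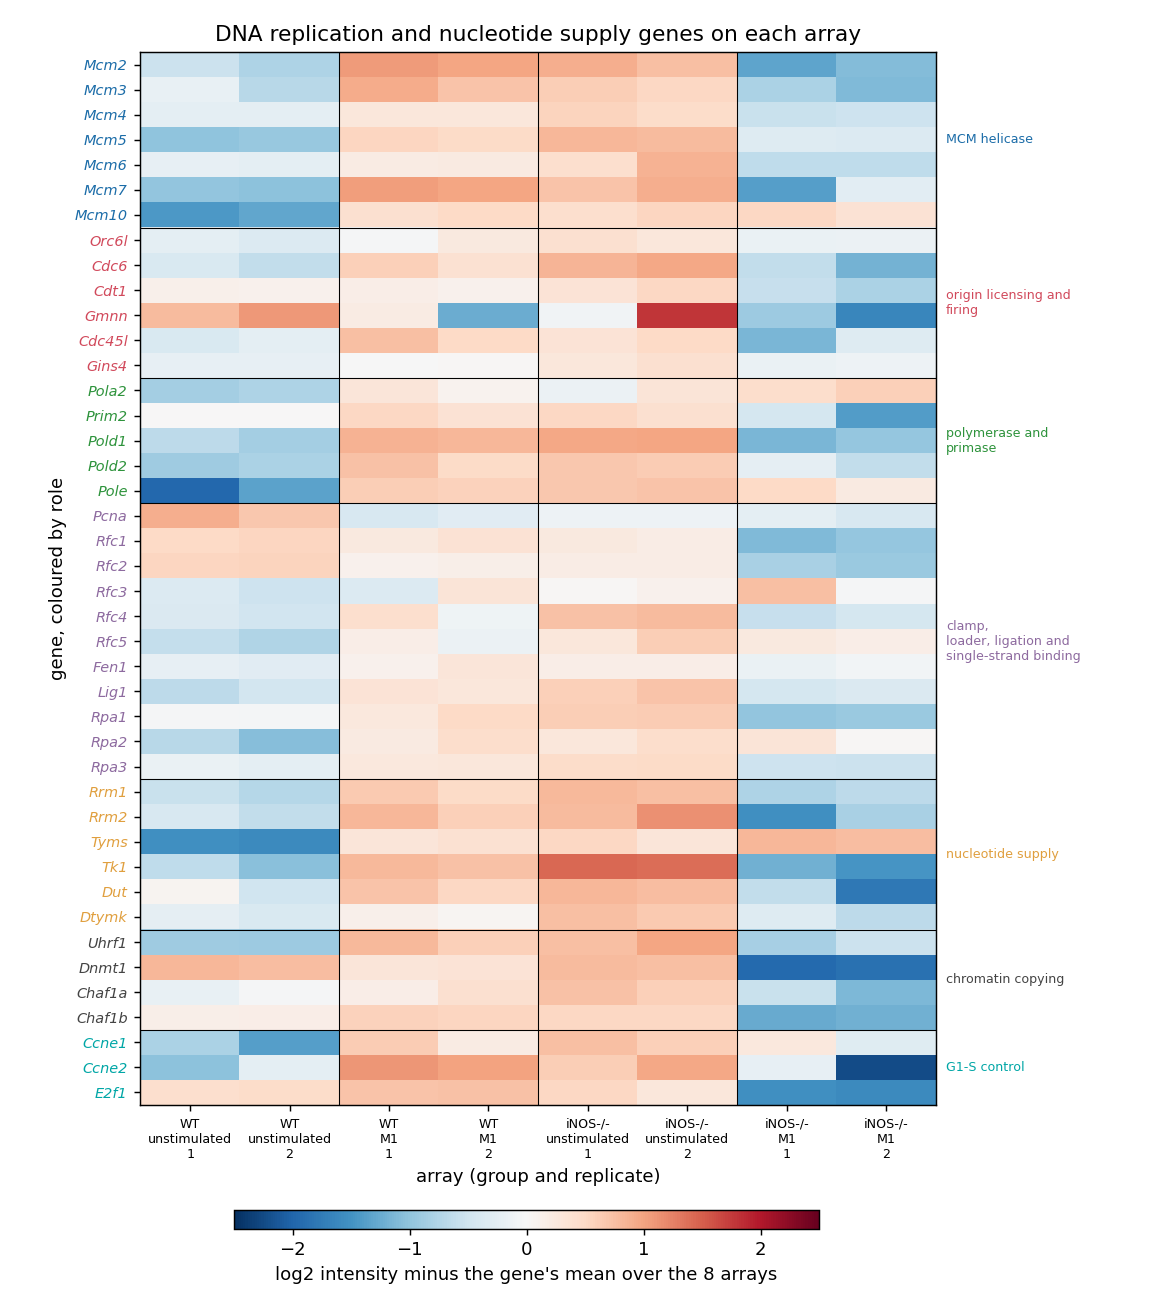
Heat map of the 42 tested genes (rows, grouped and coloured by role) on the 8 arrays (columns), as log2 intensity minus the mean of the gene over all arrays. Most rows are blue on the WT unstimulated arrays and on those labelled iNOS-/- M1, and red on the other 4 arrays, while the group means of Pcna, Gmnn, Dnmt1, Rfc1 and Rfc2 were highest in WT unstimulated.

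In WT cells, 24 of the 42 members rose with M1 activation and 3 fell, with a median difference of 0.76. Over all 10163 genes tested, 20.9% rose and 15.5% fell. The median was 0.48 when the arrays were normalized with neqc (normexp background correction and quantile normalization). Leaving out either WT unstimulated array lowered the number of members called from 27 to 18, the lost calls including Chaf1b, Fen1, Rfc2 and Rpa1.

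In cells labelled iNOS-/-, 30 members fell with activation and Tyms alone rose, with a median difference of -1.22. The background was 26.8% of all tested genes falling and 25.2% rising. A group of 16 members rose in WT and fell in cells labelled iNOS-/-, namely Cdc6, Chaf1b, Lig1, Mcm2, Mcm3, Mcm4, Mcm5, Mcm7, Pold1, Pold2, Rpa1, Rpa3, Rrm1, Rrm2, Tk1 and Uhrf1. The WT rise of 5 of these 16, Cdc6, Chaf1b, Mcm7, Rpa1 and Rrm2, lost its call without either WT unstimulated array, and the fall of Mcm7 in cells labelled iNOS-/- without either unstimulated array labelled iNOS-/-. A further 12 fell in cells labelled iNOS-/- and passed no threshold in WT, and 7 rose in WT and passed none in cells labelled iNOS-/-.

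The difference between the responses of the genotypes was tested directly as an interaction. It was called negative for 38 of the 42 members and positive for Pcna, with a median of -1.91. Over all tested genes it was called negative in 23.6% and positive in 20.1%, with a median of -0.05. Gmnn, Pola2 and Rfc3 were not called. With each array left out in turn, between 36 and 38 members were called.

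**Figure D2:**
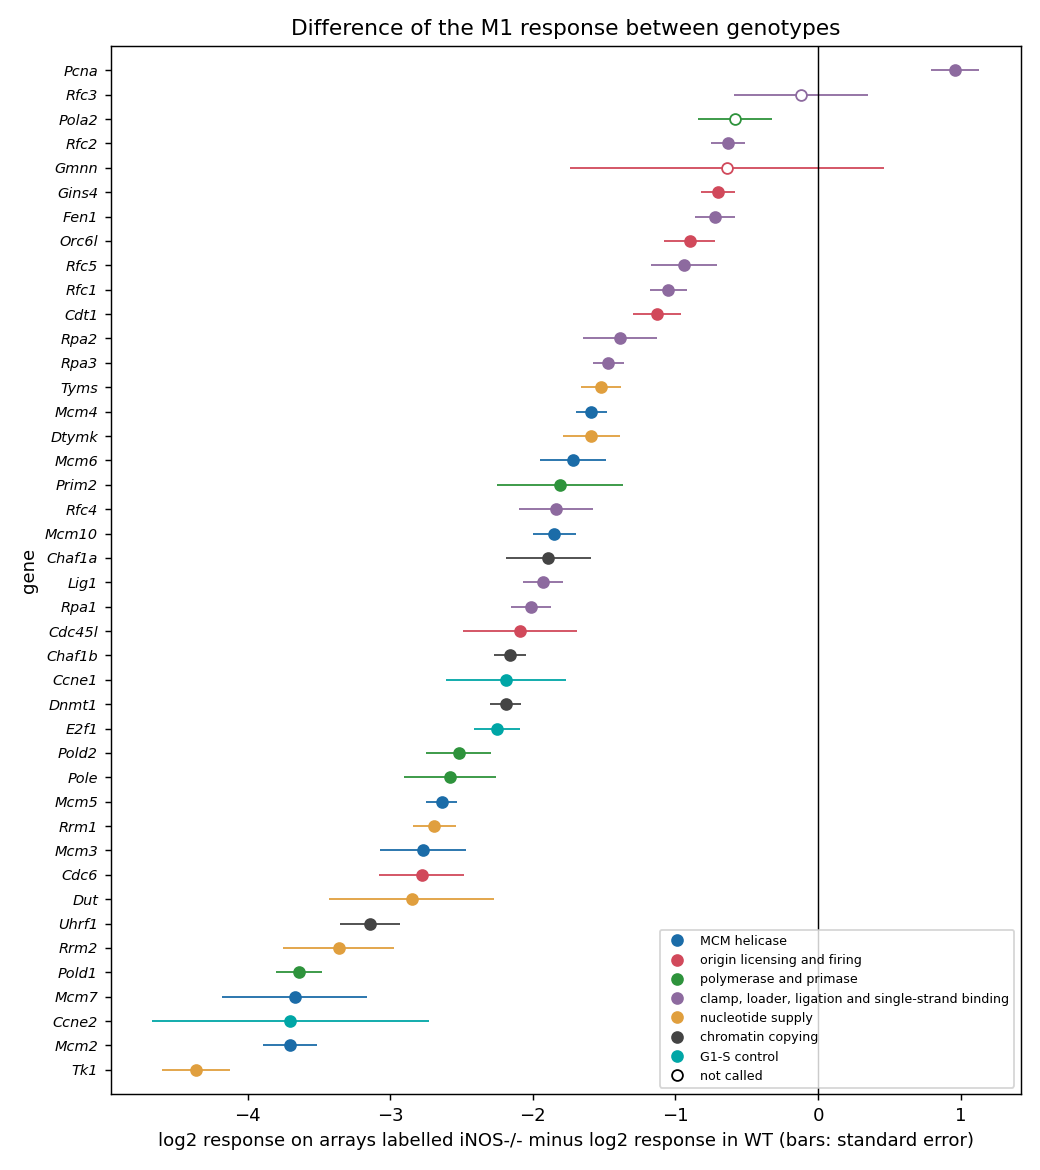
Difference of the M1 response between genotypes for each of the 42 tested genes (points, log2 response on arrays labelled iNOS-/- minus log2 response in WT, bars are standard errors), coloured by role. Filled points were called, open points (Gmnn, Pola2, Rfc3) were not, and Pcna is the only point to the right of 0 while Tk1 at -4.36 lies farthest to the left.

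Before stimulation, 30 members were higher on the arrays labelled iNOS-/- than in WT and 2, Pcna and Rfc2, were lower, with a median difference of 1.01. Over all tested genes, 17.9% were higher and 16.2% lower. After M1 activation the order turned, with 29 members lower on the arrays labelled iNOS-/- and Tyms alone higher, at a median of -0.92, against 26% of all tested genes lower and 23.7% higher. These contrasts share arrays with the responses above and with the interaction, so they are not independent of them. The arrays labelled iNOS-/- unstimulated held the highest mean for 26 of the 42 members. Those labelled iNOS-/- M1 held the lowest for 25, and the WT unstimulated arrays for 16.

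**Figure D3:**
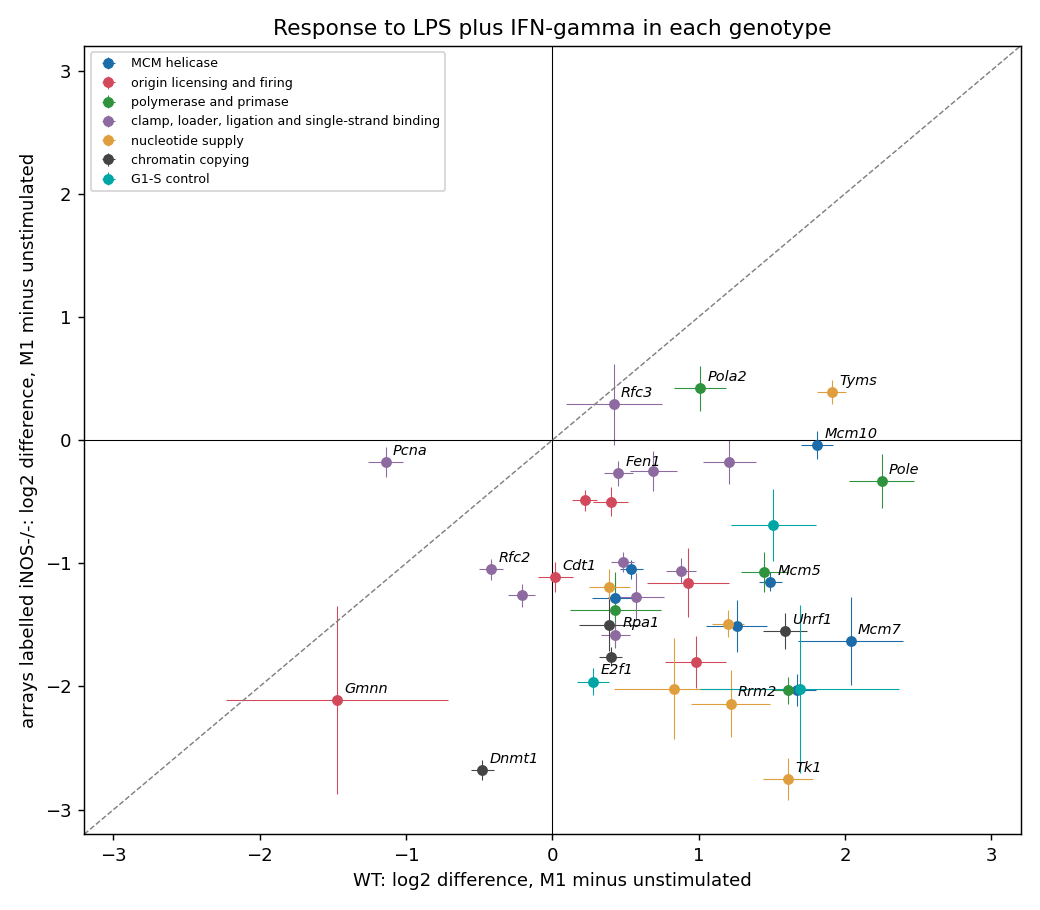
Response of each tested gene to LPS plus IFN-γ in WT (x axis) and on arrays labelled iNOS-/- (y axis), as log2 difference of M1 minus unstimulated with standard errors, coloured by role. Most points lie to the right of 0 and below 0, 16 of them called in both directions, and Tyms at 1.91 and 0.39 is the only gene called higher on both axes. The dashed line marks equal responses.

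The MCM helicase, the ring of Mcm2 to Mcm7, unwinds the DNA at the fork, and Mcm10 is listed with it. The interaction was called negative for all 7 of these genes. All 7 were higher on the arrays labelled iNOS-/- than in WT before stimulation, by 0.76 (Mcm4) to 1.83 (Mcm10), with the calls of Mcm3, Mcm6 and Mcm7 lost without WT unstimulated replicate 2 and other single arrays. Mcm5, a ring subunit, had log2 intensities of 7.94 and 7.99 in WT unstimulated, 9.48 and 9.43 in WT M1, 9.77 and 9.74 on the unstimulated arrays labelled iNOS-/- and 8.62 and 8.60 on those labelled iNOS-/- M1. The 4 groups did not overlap, and the WT unstimulated arrays were the lowest. Mcm5 rose by 1.49 in WT (SE 0.077, adjusted p = 0.000204) and fell by 1.15 in cells labelled iNOS-/- (adjusted p = 0.000227), an interaction of -2.64 (SE 0.11, adjusted p = 0.00018).

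Mcm4, another ring subunit, was at 9.03 on both WT unstimulated arrays, at 9.56 and 9.57 in WT M1, at 9.84 and 9.75 on the unstimulated arrays labelled iNOS-/- and at 8.73 and 8.76 on those labelled iNOS-/- M1. Its swings were smaller than those of Mcm5, with an interaction of -1.59 (SE 0.11, adjusted p = 0.000598). Mcm2 was at 5.31 and 5.08, at 6.90 and 6.83, at 6.75 and 6.60, and at 4.53 and 4.76 in the same order of groups. The interaction of Mcm2 was -3.70 (SE 0.19, adjusted p = 0.000302), and between the M1 groups it was 4.67-fold lower on the arrays labelled iNOS-/-. Mcm3 and Mcm7 also rose in WT, by 1.26 and 2.04, and fell by 1.51 and 1.63 in cells labelled iNOS-/-.

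Mcm6 fell by 1.28 in cells labelled iNOS-/- and was 0.43 higher in WT M1 than in WT unstimulated, a difference that was not called (adjusted p = 0.0926) on its brightest probe. A dimmer probe of Mcm6, starting at base 2162, rose by 1.06 in WT (adjusted p = 0.00662). Mcm10, which joins the helicase when origins fire, behaved differently from the ring. It rose by 1.81 in WT (SE 0.11, adjusted p = 0.000294), and its difference was -0.04 in cells labelled iNOS-/- (adjusted p = 0.768), where both unstimulated arrays (7.65 and 7.76) were already at the level of WT M1 (7.64 and 7.73). A second, dimmer Mcm10 probe fell by 0.75 in cells labelled iNOS-/- (adjusted p = 0.0042), so both probes of Mcm10 did not give the same call there.

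**Figure D4:**
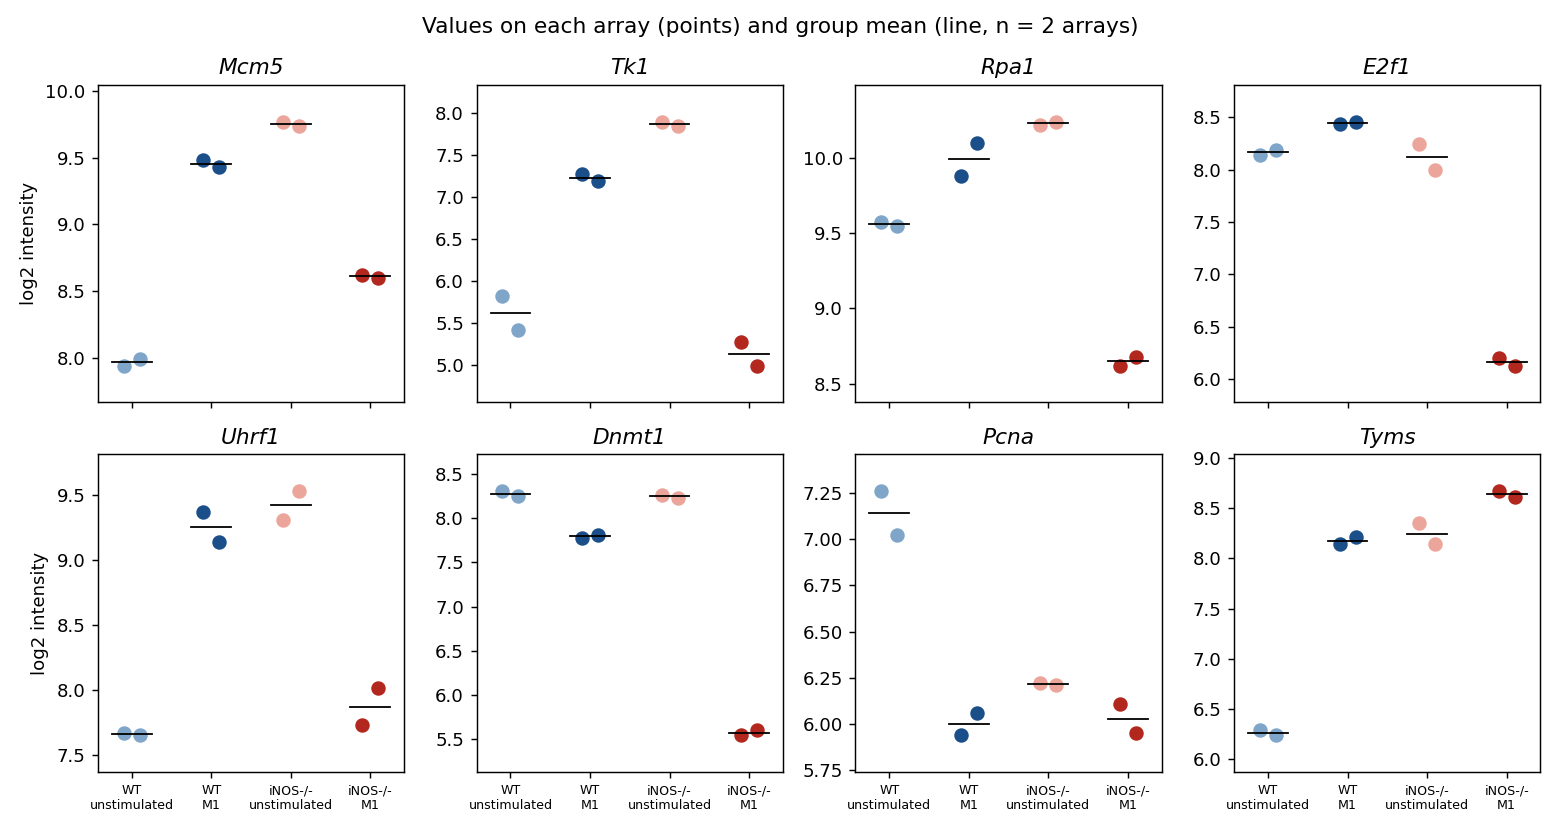
Log2 intensity on each array (points) and group means (lines, n = 2 arrays per group) of 8 genes, each panel with its own y axis that does not start at 0. Mcm5, Tk1, Rpa1 and Uhrf1 are higher in WT M1 than in WT unstimulated and lower on arrays labelled iNOS-/- M1 than on iNOS-/- unstimulated, E2f1 and Dnmt1 are lowest on arrays labelled iNOS-/- M1, Pcna is highest in WT unstimulated, and Tyms is highest on arrays labelled iNOS-/- M1.

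Most licensing and firing factors fell in cells labelled iNOS-/- and were mostly not called in WT. Of 6 tested genes, Cdc6, which loads the helicase, rose in WT (0.98, adjusted p = 0.0208), while 5 fell in cells labelled iNOS-/-. The WT call of Cdc6 was lost without any of the 4 WT arrays and with averaged probes. The change of Cdc6 in cells labelled iNOS-/- was -1.80 (SE 0.21, adjusted p = 0.00154). Gins4, a subunit of the GINS complex, was at 8.53 on both WT unstimulated arrays, 8.72 and 8.77 in WT M1, 9.03 and 9.14 on the unstimulated arrays labelled iNOS-/- and 8.57 and 8.62 on those labelled iNOS-/- M1. It fell by 0.49 in cells labelled iNOS-/- (adjusted p = 0.00592), and its difference of 0.22 in WT was not called (adjusted p = 0.104).

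Cdt1, the partner of Cdc6 in loading, was at 8.20 and 8.17 in WT unstimulated and 8.24 and 8.17 in WT M1. On the arrays labelled iNOS-/- it was at 8.41 and 8.59 unstimulated and at 7.50 and 7.27 after activation. The WT groups of Cdt1 thus overlapped, and the change in cells labelled iNOS-/- was -1.11 (SE 0.12, adjusted p = 0.00107). Cdc45l and Orc6l, a fork helicase cofactor and an origin recognition subunit, fell by 1.16 and 0.50 there. Both calls were lost without either unstimulated array labelled iNOS-/-. The call of Orc6l was also lost without either array labelled iNOS-/- M1. That of Cdc45l was also lost without a detection filter and in a fit on the 4 arrays compared. Gmnn, the inhibitor of Cdt1, was detected on 1 array of each unstimulated group only, with values from 0 to 3.40 over the 8 arrays, and was called in no comparison. Unadjusted p was under 0.05 for Gmnn in 1 of them, the response in cells labelled iNOS-/- (0.0373, adjusted p = 0.0692).

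Among polymerases and primase, 4 of 5 tested genes rose in WT and 3 of 5 fell in cells labelled iNOS-/-. Pold1 is the catalytic subunit of polymerase delta. It was at 7.11 and 6.91 in WT unstimulated, 8.63 and 8.60 in WT M1, 8.73 and 8.75 on the unstimulated arrays labelled iNOS-/-, and 6.62 and 6.80 on those labelled iNOS-/- M1. WT M1 and the unstimulated arrays labelled iNOS-/- were the high groups, and the interaction was -3.64 (SE 0.16, adjusted p = 0.000192). Pold2, its accessory subunit, rose by 1.45 in WT and fell by 1.07 in cells labelled iNOS-/-. Prim2, a primase subunit, fell by 1.38 in cells labelled iNOS-/- (adjusted p = 0.0151), a call lost without either unstimulated array of that genotype. Its interaction of -1.81 lost its call without a detection filter and without any 1 of the 6 arrays outside iNOS-/- M1. A dimmer Prim2 probe differed by -0.66 in cells labelled iNOS-/- (adjusted p = 0.0796), with an interaction of -0.81 (adjusted p = 0.127). Neither was called.

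Pola2 and Pole were called in WT and not in cells labelled iNOS-/-. Pola2, a subunit of the polymerase that starts each strand, was at 5.73 and 5.81 in WT unstimulated, 6.88 and 6.67 in WT M1, 6.44 and 6.91 on the unstimulated arrays labelled iNOS-/- and 7.02 and 7.18 on those labelled iNOS-/- M1. It rose by 1.01 in WT (SE 0.18, adjusted p = 0.0112), a call lost without WT unstimulated replicate 1 or WT M1 replicate 1, and the difference of 0.42 in cells labelled iNOS-/- was not called (adjusted p = 0.107). The interaction of Pola2 was -0.58 (SE 0.26, adjusted p = 0.126). Pole, the catalytic subunit of polymerase epsilon, rose by 2.25 in WT (SE 0.22, adjusted p = 0.00171) and differed by -0.33 in cells labelled iNOS-/- (adjusted p = 0.276).

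The clamp, its loader, ligation and single-strand binding genes went in both directions, with 6 rising and 2 falling in WT and 6 falling in cells labelled iNOS-/-, of 11 tested. Rpa1 encodes the large subunit of the protein that coats single-stranded DNA. Its values were 9.57 and 9.55 in WT unstimulated, 9.88 and 10.10 in WT M1, 10.22 and 10.24 on the unstimulated arrays labelled iNOS-/- and 8.62 and 8.68 on those labelled iNOS-/- M1. No groups overlapped, and Rpa1 fell by 1.58 in cells labelled iNOS-/- (SE 0.10, adjusted p = 0.000206). The rise in WT of 0.43 (adjusted p = 0.0269) lost its call without either WT unstimulated array, WT M1 replicate 2 or either unstimulated array labelled iNOS-/-. Rpa3 rose by 0.48 in WT and fell by 0.99 in cells labelled iNOS-/-. Rpa2 rose by 1.21 in WT on its brightest probe, with a difference of -0.18 (adjusted p = 0.452) in the other genotype. A dimmer Rpa2 probe fell by 0.79 in cells labelled iNOS-/- (adjusted p = 0.0225). Its difference of 0.28 in WT was not called (adjusted p = 0.327), so the calls of Rpa2 depend on the probe.

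Fen1, the nuclease that trims lagging-strand fragments, was at 9.23 and 9.16 in WT unstimulated, 9.55 and 9.74 in WT M1, 9.60 on both unstimulated arrays labelled iNOS-/-, and 9.28 and 9.38 on those labelled iNOS-/- M1. It rose by 0.45 in WT (adjusted p = 0.0226), and the difference of -0.27 in cells labelled iNOS-/- was not called (adjusted p = 0.0797). Its WT call was lost without either WT unstimulated array or WT M1 replicate 2, and its call between the unstimulated groups (0.41, adjusted p = 0.0332) without any of their 4 arrays, under the replicate block and in a fit on those 4 arrays. Lig1, the ligase that joins these fragments, rose by 0.88 in WT and fell by 1.06 in cells labelled iNOS-/-.

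Pcna, the sliding clamp itself, was the only member with a positive interaction. It was at 7.26 and 7.02 in WT unstimulated, 5.94 and 6.06 in WT M1, 6.22 and 6.21 on the unstimulated arrays labelled iNOS-/- and 6.11 and 5.95 on those labelled iNOS-/- M1. The WT unstimulated arrays were the high group, and both M1 groups overlapped. Pcna fell by 1.14 in WT (SE 0.12, adjusted p = 0.00208) and differed by -0.18 in cells labelled iNOS-/- (adjusted p = 0.255), an interaction of 0.96 (SE 0.17, adjusted p = 0.0089). A single probe, starting at base 1063, represents Pcna on this array.

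The subunits of the clamp loader did not move as a unit. Rfc2 was at 9.85 and 9.87 in WT unstimulated, 9.41 and 9.46 in WT M1, 9.49 on both unstimulated arrays labelled iNOS-/- and 8.50 and 8.38 on those labelled iNOS-/- M1. It fell in both genotypes, by 0.42 in WT (adjusted p = 0.0151) and by 1.05 in cells labelled iNOS-/- (adjusted p = 0.000387). The fall of Rfc2 in WT lost its call without any of the 4 WT arrays, and its lower level on the unstimulated arrays labelled iNOS-/- (-0.36, adjusted p = 0.0252) lost its call without any of those 4 arrays, under neqc and quantile normalization, under the replicate block and in a fit on the 4 arrays compared. Rfc1, the large subunit, fell by 1.26 and Rfc4 by 1.27 in cells labelled iNOS-/- with no call in WT. A dimmer Rfc4 probe rose by 1.20 in WT (adjusted p = 0.0216). On that probe the difference of -0.51 in cells labelled iNOS-/- was not called (adjusted p = 0.171), so the calls of Rfc4 depend on the probe. Rfc5 rose by 0.69 in WT. That rise lost its call under quantile normalization, without a detection filter, under the replicate block, in a fit on the 4 WT arrays, and without either WT unstimulated array or WT M1 replicate 1. The interaction of Rfc5 (-0.94) lost its call under quantile normalization and without any 1 of 6 arrays, all but WT M1 replicate 2 and iNOS-/- unstimulated replicate 1. Rfc3 was at 4.83 and 4.65, at 4.83 and 5.48, at 5.19 and 5.28, and at 5.92 and 5.13 in the order of groups used above, and was called in no comparison, its interaction being -0.12 here and 0.15 to 0.21 under other scalings.

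For the nucleotide supply genes, all 6 tested interactions were called negative, and among the 42 members that of Tk1 was the most negative. Tk1, the salvage kinase for thymidine, was at 5.82 and 5.41 in WT unstimulated, 7.27 and 7.19 in WT M1, 7.90 and 7.85 on the unstimulated arrays labelled iNOS-/- and 5.27 and 4.99 on those labelled iNOS-/- M1. It rose 3.06-fold in WT (adjusted p = 0.00208) and fell 6.72-fold in cells labelled iNOS-/- (adjusted p = 0.000182), an interaction of -4.36 (SE 0.24, adjusted p = 0.000366). A second Tk1 probe, which shares 32 bases with the first, gave an interaction of -2.77 (adjusted p = 0.0057).

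Rrm1, the large subunit of ribonucleotide reductase, was at 6.77 and 6.63 in WT unstimulated, 7.98 and 7.82 in WT M1, 8.15 and 8.08 on the unstimulated arrays labelled iNOS-/- and 6.56 and 6.69 on those labelled iNOS-/- M1. The low groups, WT unstimulated and iNOS-/- M1, overlapped, and the interaction was -2.69 (SE 0.15, adjusted p = 0.000374). The small subunit Rrm2 had an interaction of -3.36 (SE 0.39, adjusted p = 0.0023), with a rise of 1.22 in WT and a fall by 2.14 in cells labelled iNOS-/-. Dut, which clears dUTP, and Dtymk, which phosphorylates dTMP, fell by 2.02 and 1.19 there and were not called in WT. On the arrays labelled iNOS-/- M1, Dut was at 3.02 and 1.85 and was detected on 1 of them, so its fall is measured against the detection limit. That call was lost without iNOS-/- unstimulated replicate 1.

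Tyms, which makes dTMP from dUMP, was the exception of this group and the only member called higher with activation in both genotypes. It was at 6.29 and 6.24 in WT unstimulated, 8.14 and 8.21 in WT M1, 8.35 and 8.14 on the unstimulated arrays labelled iNOS-/- and 8.67 and 8.61 on those labelled iNOS-/- M1. The last of these groups was the highest, above every other array. The rise was 1.91 in WT (SE 0.10, adjusted p = 0.000215) and 0.39 in cells labelled iNOS-/- (SE 0.10, adjusted p = 0.0235). That second rise lost its call under neqc (0.21, adjusted p = 0.106), under quantile normalization (0.22, adjusted p = 0.132), with both tested Tyms probes averaged, in a fit on the 4 arrays compared, and without iNOS-/- unstimulated replicate 2 or either array labelled iNOS-/- M1. Between the M1 groups Tyms was 0.46 higher on the arrays labelled iNOS-/- (adjusted p = 0.0149), a call lost without WT M1 replicate 1 and without iNOS-/- M1 replicate 1.

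Since Tyms departs from the other members, the probes behind its values are shown, as deposited and without capitals. The last line gives the probe of Mcm5, which follows the common pattern, for comparison. These genes were picked for display after their values were seen. Each has 50 bases and is named by gene and by its first base in the transcript.
Tyms 231: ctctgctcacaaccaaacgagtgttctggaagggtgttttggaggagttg
Tyms 313: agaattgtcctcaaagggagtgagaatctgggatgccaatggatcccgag
Mcm5 2509: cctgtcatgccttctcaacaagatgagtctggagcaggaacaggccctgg
Tyms 231 is the brighter probe and gave the values above. Tyms 313 was at 3.92 and 2.76, 4.39 and 4.64, 4.71 and 5.15, and 6.11 and 5.55 in the same order of groups, so that its arrays labelled iNOS-/- M1 were also the highest. Its differences of 1.17 in WT (adjusted p = 0.0915) and 0.90 in cells labelled iNOS-/- (adjusted p = 0.139) were not called. The Tyms interaction was -1.52 (SE 0.14, adjusted p = 0.0013) on the first probe and -0.27 (adjusted p = 0.76) on the second, so that call rests on the first probe.

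All 4 genes that copy chromatin and DNA methylation behind the fork fell in cells labelled iNOS-/-. Uhrf1, which recognises hemimethylated DNA and recruits Dnmt1, was at 7.67 and 7.65 in WT unstimulated, 9.37 and 9.14 in WT M1, 9.31 and 9.53 on the unstimulated arrays labelled iNOS-/- and 7.73 and 8.01 on those labelled iNOS-/- M1. It rose by 1.59 in WT and fell by 1.55 in cells labelled iNOS-/-, an interaction of -3.14 (SE 0.21, adjusted p = 0.000563). Chaf1b and Chaf1a, subunits of the histone chaperone CAF-1, fell by 1.76 and 1.50 in cells labelled iNOS-/-, and Chaf1b rose by 0.40 in WT (adjusted p = 0.0143).

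Dnmt1, the maintenance methyltransferase, did not follow Uhrf1 in WT. It was at 8.31 and 8.25 in WT unstimulated, 7.78 and 7.81 in WT M1, 8.27 and 8.23 on the unstimulated arrays labelled iNOS-/- and 5.54 and 5.60 on those labelled iNOS-/- M1. The last pair lay far below all other arrays, and the unstimulated groups overlapped. Dnmt1 fell by 0.48 in WT (SE 0.079, adjusted p = 0.00822) and 6.4-fold in cells labelled iNOS-/- (-2.68, adjusted p = 2.87e-05).

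Of the regulators of S phase entry, the interaction was called negative for all 3 tested. E2f1, the transcription factor that drives many of these genes, was at 8.14 and 8.19 in WT unstimulated, 8.44 and 8.46 in WT M1, 8.25 and 8.00 on the unstimulated arrays labelled iNOS-/- and 6.20 and 6.13 on those labelled iNOS-/- M1. It fell 3.9-fold in cells labelled iNOS-/- (-1.96, SE 0.11, adjusted p = 0.000137), and its difference of 0.28 in WT was not called (adjusted p = 0.105). Between the unstimulated groups E2f1 differed by -0.04 (adjusted p = 0.836), unlike the 30 members that were higher on the arrays labelled iNOS-/-.

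Ccne1, cyclin E1, was at 4.33 and 3.76 in WT unstimulated, 5.77 and 5.34 in WT M1, 5.88 and 5.73 on the unstimulated arrays labelled iNOS-/- and 5.40 and 4.83 on those labelled iNOS-/- M1. It rose by 1.51 in WT (SE 0.29, adjusted p = 0.0144), without a call in cells labelled iNOS-/- (-0.69, adjusted p = 0.108). The WT call of Ccne1 was lost without WT unstimulated replicate 2 or WT M1 replicate 1. Ccne2, cyclin E2, lay near the detection limit, at 2.33 and 3.11, 4.46 and 4.36, 3.97 and 4.32, and 3.15 and 1.11 in the same order, and was detected on 6 arrays. Its interaction of -3.70 (SE 0.97, adjusted p = 0.0305) depends on the floor and lost its call under the replicate block, without a detection filter, and without any array of the 6 outside iNOS-/- M1.

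Of the 10 members with several tested probes, the probes of none were called in opposite directions. Averaging the tested probes of a gene left 37 of the 39 called interactions in place with the same sign, and Cdc6 and Tyms lost theirs. Cdc6 lost all its calls with averaging, its other tested probe being detected on 2 arrays.

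E2F factors bind DNA words of the type listed here, so the promoters of the members were read for them. RefSeq promoters (GRCm38.p6, 250 bases before to 50 after the start site) were held for 39 of the 48 listed members, through Entrez identifiers and symbols. They were not held for Mcm4, Gmnn, Gins1, Gins2, Gins4, Prim2, Pole, Rfc2 and Ccne2. The words searched on both strands were TTTGGCGC, TTTCCCGC, TTTGCCGC and TTTCGCGC, which can overlap one another. At least 1 of them stood in the promoters of 14 of the 39 members (35.9%), against 2.6% of 27025 genes with a promoter in the same table and 4.62% of the 7886 tested genes with a promoter there. The 14 were Mcm3, Mcm5, Mcm6, Mcm7, Orc1l, Cdc6, Cdt1, Pola1, Pold1, Pole2, Rfc3, Lig1, Uhrf1 and Dnmt1. A match is a description of the letters and not a bound site.

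The stretches before the start site are shown for Mcm5, Mcm6, Cdc6 and Uhrf1, whose values differed between genotypes, and for Rfc3, which was called in no comparison and also holds the word. The words and the genes shown were chosen after the values were seen. Capitals mark the words, 5′ to 3′ on the strand of the gene.
Mcm5 (chr8:75109336-75109387, plus strand): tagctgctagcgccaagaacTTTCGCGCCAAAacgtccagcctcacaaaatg
Mcm6 (chr1:128359725-128359835, minus strand): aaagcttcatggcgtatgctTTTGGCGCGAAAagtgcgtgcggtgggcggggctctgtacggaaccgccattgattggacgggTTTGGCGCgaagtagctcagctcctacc
Cdc6 (chr11:98907993-98908040, plus strand): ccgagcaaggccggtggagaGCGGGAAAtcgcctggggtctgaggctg
Uhrf1 (chr17:56304108-56304155, plus strand): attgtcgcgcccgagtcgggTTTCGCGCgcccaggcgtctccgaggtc
Rfc3 (chr5:151651209-151651238, minus strand): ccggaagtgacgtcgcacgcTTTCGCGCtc
The 11 tested members with a word had a median interaction of -2.64, from -3.67 (Mcm7) to -0.12 (Rfc3). The 24 tested members whose promoter held none had a median of -1.87, from -4.36 (Tk1) to 0.96 (Pcna). The ranges overlap, and Tk1, Mcm2 and Rrm2, with interactions of -4.36, -3.70 and -3.36, held no such word in this window.

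Other promoter words were counted over the same genes. The CCAAT box, letters CCAAT on either strand, stood in 61.5% of the members, 43.3% of the tested genes and 41.1% of all genes in the table. The GC box, letters GGGCGG, stood in 76.9% of the members, 67% of the tested genes and 38.2% of all genes, and the letters TTTGAA, found in promoters of mitotic genes, in 12.8%, 14.9% and 20.2%. The median GC content of the promoters was 63% for the members, 61.3% for the tested genes and 53.3% for all genes. For a gene with several promoters in the table, the highest GC content was taken. The table held 77.6% of the tested genes, and the rest are left out of these shares. Whether GC content has a part in the counts of words was not tested.

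Of genes that work beside the members, 94 were tested, and their interaction was called negative for 50 and positive for 6, with a median of -1.13. Fork repair and checkpoint genes had 10 of 13 called negative. Other replication factors had 11 of 22, E2F and cell cycle regulators 14 of 28, other nucleotide enzymes 13 of 26, and histone supply genes 2 of 5. Over all tested genes, 23.6% were called negative.

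Cdca7, a target of E2F and Myc, was at 4.38 and 4.48 in WT unstimulated, 6.47 and 6.43 in WT M1, 6.80 and 6.65 on the unstimulated arrays labelled iNOS-/-, and undetected on those labelled iNOS-/- M1. In cells labelled iNOS-/- it was at least 14.2-fold lower after activation (adjusted p = 4.78e-05). Fanci, which is loaded with Fancd2 at damaged forks, was at 4.14 and 3.27 in WT M1, was at 3.86 and 3.31 on the unstimulated arrays labelled iNOS-/-, and was undetected in the other groups. Fanci was at least 2.31-fold higher in WT M1 than in WT unstimulated (adjusted p = 0.00478). Fancd2 was at 2.76 and 2.30 in WT unstimulated, 5.21 and 5.09 in WT M1, 5.49 and 5.39 on the unstimulated arrays labelled iNOS-/- and 2.37 and 3.15 on those labelled iNOS-/- M1. It was detected on 1 array of each low group, so that its fitted rise of 2.62 in WT (adjusted p = 0.00251) and fall by 2.68 in cells labelled iNOS-/- (adjusted p = 0.00114) are measured against the detection limit.

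Some genes of the lists went the other way. Samhd1, which degrades deoxynucleotides, was at 9.75 and 9.87 in WT unstimulated, 10.78 and 10.79 in WT M1, 9.56 and 9.50 on the unstimulated arrays labelled iNOS-/- and 12.32 and 12.39 on those labelled iNOS-/- M1. It rose 1.97-fold in WT (adjusted p = 0.00123) and 7.09-fold in cells labelled iNOS-/- (adjusted p = 3.1e-05). Hprt1, the purine salvage enzyme, was at 10.92 and 10.89, at 10.25 and 10.26, at 10.11 and 10.17, and at 10.67 and 10.74 in the same order of groups. It fell by 0.64 in WT and rose by 0.57 in cells labelled iNOS-/-. Cdkn1c, an inhibitor of cyclin-dependent kinases, was at 8.64 and 8.72, at 6.56 and 6.65, at 7.09 and 6.79, and at 6.62 and 6.50, highest in WT unstimulated. It fell by 2.08 in WT (adjusted p = 0.000361) and differed by -0.38 in the other genotype (adjusted p = 0.0571).

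Genes of mitosis moved with the members. Of 10 tested, 9 were called higher with activation in WT and 8 called lower in cells labelled iNOS-/-. The interaction was called negative for 9, with a median of -3.62 over the 10. Over all tested genes, the shares of these calls were 20.9%, 26.8% and 23.6%. Their summed intensity was 784 to 857 in WT unstimulated, 2340 to 2410 in WT M1, 2780 to 2920 on the unstimulated arrays labelled iNOS-/- and 939 to 940 on those labelled iNOS-/- M1. Tpx2, a spindle assembly factor, was the mitotic gene called higher between the M1 groups on the arrays labelled iNOS-/- (0.79), and it is named after its value was seen.

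Macrophage markers were bright in every group, and 10 of the 11 on the array were detected on all 8 arrays. Their summed intensity ran from 46600 on the arrays labelled iNOS-/- unstimulated to 67800 on those labelled iNOS-/- M1. Of 11 dendritic cell markers, 10 were detected on some array, Flt3 on none, and their sum was 396 to 449 in WT unstimulated, 6050 to 6180 in WT M1, 4650 to 4810 on the unstimulated arrays labelled iNOS-/- and 18500 to 19600 on those labelled iNOS-/- M1. Granulocyte markers summed to 1280, 1950 to 2040, 1870 to 1920, and 6820 to 7250 in the same order, with 8 of 12 detected on some array and Ctsg, Mpo, Prtn3 and Retnlg on none. These sums differed between the groups compared above and were highest on the arrays labelled iNOS-/- M1, where most members were low. Their part in the results was not tested. The dendritic cell list was split between the M1 groups. Of its 9 tested genes, Ccr7, Cd83 and Il4i1 had more signal in iNOS-/- M1 than in WT M1 (2.96, 2.02 and 1.59). Cd209a and Siglech, undetected in iNOS-/- M1, had at least 4.21-fold and 2.16-fold less there, and 4 passed no threshold. Il4i1 was the brightest of them in iNOS-/- M1, at 13.69 and 13.82, so the sum is no count of dendritic cells. For T cells, Cd3d, Cd3e, Cd3g, Cd4 and Cd8a were undetected on every array, and for B cells Ms4a1 and Pax5. Of the other lists, mast cell and basophil markers summed to 8.36 to 11.9 in WT unstimulated and 36.3 to 36.8 in WT M1. On the arrays labelled iNOS-/- they summed to 93.6 to 106 unstimulated and 128 to 130 after activation. Erythroid markers summed to at most 9.24 in WT unstimulated and 47 on any array, and fibroblast and endothelial markers to at most 3.87 and 44.2. S100a9, Cpa3, Pecam1, Hba-a1 and Dpp4 were undetected in WT unstimulated and detected on all other arrays. Cd68 and Mmp8 were highest in WT unstimulated. These genes were picked after their values were seen, and their part in the results was not tested.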

How the data were processed

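The authors deposited the mean bead intensity and a detection p-value of each probe on 8 arrays. The labels and methods name background subtraction and rank-invariant normalization, while the deposited intensity values were not normalized between arrays and their header names none. Between 25.22% and 27.19% of them were below 0, so no background was subtracted here. The labels name 2 array types, MouseRef and MouseWG, and the submitters' processing notes name GenomeStudio and limma 3.14.4.

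Each array was multiplied by the slope of a robust line through the origin that fitted the mean array from it. The line used probes with stable rank (factors 0.8128 to 1.302), and the details of this step were chosen here. Values under 1 were set to 1 and log2 was taken. The tested probes were those with a deposited detection p-value below 0.05 for 2 or more arrays. The 4 groups were fitted together over the 8 arrays with limma 3.58.1 in R 4.3.3, with Benjamini-Hochberg adjustment over 13868 probes, and was tested on simulated data. A gene is given by its brightest probe. "At least" folds set an undetected group at the lowest detected signal. The 2 arrays per group limit the precision.

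Members and lists were chosen with earlier results of these data known. Values on every array are given for the 2 brightest tested members of each role group, the 3 lowest and 3 highest interactions, and members called against the median, and outside the members for the 3 lowest and 3 highest called interactions where detected. The alternatives were neqc, quantile normalization, an intercept in the line, a floor of 16, no or a stricter detection filter, averaged probes, a fit on the 4 arrays compared, a replicate block, and each array left out. Sequences came from RefSeq (GRCm38.p6) and the deposited probe table.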

Additional observations from a re-analysis of the deposited data

Results flagged for a closer look

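The response to LPS plus IFN-γ differed between the genotypes, by the test of the difference itself, for 39 of the 42 tested members, so these genes are listed together as log2 differences of the response (labelled iNOS-/- minus WT). For the MCM helicase and Mcm10 they were -3.70 for Mcm2, -2.77 for Mcm3, -1.59 for Mcm4, -2.64 for Mcm5, -1.72 for Mcm6, -3.67 for Mcm7 and -1.85 for Mcm10. For licensing and firing they were -0.90 for Orc6l, -2.78 for Cdc6, -1.13 for Cdt1, -2.09 for Cdc45l and -0.70 for Gins4. For the polymerases and primase they were -1.81 for Prim2, -3.64 for Pold1, -2.52 for Pold2 and -2.58 for Pole. The calls of Prim2, Rfc5 and Ccne2 were lost without most single arrays.

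For the clamp, loader, ligation and single-strand binding genes the differences were 0.96 for Pcna, -1.05 for Rfc1, -0.63 for Rfc2, -1.84 for Rfc4, -0.94 for Rfc5, -0.72 for Fen1, -1.93 for Lig1, -2.01 for Rpa1, -1.39 for Rpa2 and -1.47 for Rpa3. For nucleotide supply they were -2.69 for Rrm1, -3.36 for Rrm2, -1.52 for Tyms, -4.36 for Tk1, -2.85 for Dut and -1.59 for Dtymk. For chromatin copying they were -3.14 for Uhrf1, -2.19 for Dnmt1, -1.89 for Chaf1a and -2.16 for Chaf1b. For S phase entry they were -2.19 for Ccne1, -3.70 for Ccne2 and -2.25 for E2f1. Pcna was the only member of the 39 with a positive difference. The value of Dut rests in part on a level at the detection limit, since it was detected on 1 array labelled iNOS-/- M1.

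Outside the members, the same test was called for Cdca7 (-7.13), Fanci (-6.65), Fancd2 (-5.31), Hprt1 (1.21), Cdkn1c (1.70) and Samhd1 (1.85). Cdca7 and Fanci were undetected in at least 1 group, so that their values depend on the floor of 1 and are no bounds. Fancd2 was detected on 1 of 2 arrays in WT unstimulated and in iNOS-/- M1, and its value also rests on levels at the detection limit.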

How the results depend on the processing

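The number of called members stayed within 1.5 times its value in every comparison and alternative. With each array left out it ran from 24 to 28 of 30 between the M1 groups, 22 to 36 of 32 between the unstimulated groups, 18 to 31 of 27 for WT, 27 to 31 of 31 for cells labelled iNOS-/-, and 36 to 38 of 39 for the interaction. Replicate numbers did not pair the arrays (correlations of replicate differences -0.0375 to 0.0247), and the replicate block called 28, 29, 26, 32 and 38 members in these 5 comparisons. No member called in the chosen setting was called with the opposite sign in another.

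Members' medians kept their sign and moved beyond the spread between arrays (0.0546) in the settings named here. Between the M1 groups, -0.92 became -0.72 under neqc, -0.84 with a floor of 16, -0.85 without and with the stricter detection filter, and -1.0 to -0.84 with an array left out. Between the unstimulated groups, 1.01 became 0.81 under neqc, 0.93 under quantile normalization, 0.85 with an intercept, 0.89 with the floor of 16 and without the filter, and 0.89 to 1.07 with an array left out. In WT, 0.76 became 0.48 under neqc, 0.55 under quantile normalization, with the floor of 16 and without the filter, 0.58 with an intercept, 0.69 with the stricter filter, 0.86 with averaged probes and 0.58 to 0.87 with an array left out. In cells labelled iNOS-/-, -1.22 became -1.01 under neqc, -1.30 under quantile normalization, -1.07 with an intercept, -1.10 with the floor of 16, -1.16 with the stricter filter, -1.11 with averaged probes and -1.24 to -1.11 with an array left out. The interaction of -1.91 became -1.35 under neqc, -1.83 under quantile normalization, -1.68 with an intercept, -1.82 with the floor of 16, -1.84 without the filter, -2.05 with averaged probes and -1.97 to -1.87 with an array left out. The cause was not tested. An intercept moved the median of all genes to 0.21, -0.11, -0.09, 0.16 and 0.29 in these comparisons, and quantile normalization to -0.17 for cells labelled iNOS-/-.

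Small differences that were not called changed sign. Cdt1 in WT (0.02) was -0.04 under neqc, -0.05 under quantile normalization and -0.01 to 0.06 with an array left out. The interaction of Rfc3 (-0.12) was 0.17 under neqc, 0.21 under quantile normalization, 0.15 with an intercept and -0.52 to 0.27 with an array left out. With an array left out, the difference between the M1 groups was -0.05 to 0.11 for Pcna (0.03) and -0.03 to 0.76 for Rfc3 (0.37), that of E2f1 between the unstimulated groups (-0.04) was -0.16 to 0.09, and that of Rfc3 in cells labelled iNOS-/- (0.29) was -0.11 to 0.69.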
